A study of Mus musculus with 4 samples.

Results

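The genes described here are those of insulin-like growth factor (IGF) signalling in the hearts of mouse embryos at E10.5: the ligands Igf1 and Igf2, the receptors Igf1r and Igf2r, and the binding protein genes Igfbp2, Igfbp3, Igfbp4, Igfbp5 and Igfbp7. They are 9 of the 32285 genes in the deposited matrices and were found by symbol, each with 1 row. The set was chosen by a readout of the same data, a higher level of Igfbp5 in mesenchymal-like cells of mutant hearts, so that this difference is given below as a description without a test. Single-cell RNA sequencing had been done on 2 libraries from wild-type hearts (Wt1 and Wt2) and 2 from homozygous mutant hearts (Ho1 and Ho2), all from C57BL/6J embryos. The mutants carry Cyp51 I383V/I383V, a point mutation made with CRISPR/Cas9 in the gene of the sterol 14-demethylase of cholesterol synthesis, and counts from the 3′ end of a transcript do not read that substitution. The labels do not say how many embryos gave each library, nor whether libraries of a genotype came from separate embryos, so p-values measure the spread between these libraries, which for Wt may be technical, while the sex genes given below place Ho1 and Ho2 in different embryos. Of 33589 barcodes, 29168 cells were used, and 20709 of them fell into 8 gates, each set by a marker gene.

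In the embryo IGF1 and IGF2 act mainly through IGF1R, a receptor tyrosine kinase that drives growth and survival. IGF2R has no kinase activity and carries IGF2 to the lysosome for breakdown, so that it acts as a sink. The binding proteins IGFBP2 to IGFBP5 hold IGFs outside the cell and can block or prolong their action, and IGFBP7 is a more distant relative with low affinity for IGFs. In the developing heart, IGF2 from the epicardium is known for its part in the growth of the ventricular wall. Igf2 and Igf2r are imprinted genes, expressed in most mouse tissues from the paternal and the maternal copy respectively.

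The gates were named by their genes, and other markers were read in each. Cells with Tnnt2, which encodes cardiac troponin T, were split by Shox2, a transcription factor of the sinus venosus, and in the Shox2+ cells the pacemaker channel gene Hcn4 had a mean of 87.4 UMIs per 1000000 (CPM) against 14.1 in the Shox2- cells. The Cdh5+ gate held the endothelial markers Emcn at 324 CPM and Pecam1 at 147 CPM. In the Hapln1+ gate, the cushion mesenchyme genes Twist1 (675 CPM) and Sox9 (139 CPM) were present, and endothelial markers summed to 377 to 463 CPM. The Stmn4+ gate carried Postn at 266 CPM and Acta2 at 2765 CPM, below the 5355 and 7179 CPM of Acta2 in the Tnnt2+ gates, and the Crabp1+ gate carried Prrx1 at 92.8 CPM. Crabp1+ cells were unlike between libraries, with 27.3, 285 and 173 CPM of Krt18 in Wt1, Wt2 and Ho2. In the same order they had 54.7, 449 and 250 CPM of Isl1 and 48.5, 319 and 1351 CPM of Acta2. The Upk3b+ gate held the epicardial genes Tcf21 (769 CPM), Tbx18 (158 CPM) and Wt1 (114 CPM), but also 2600 to 4602 CPM of summed cardiomyocyte markers, led by Myl7. In the Epcam+ gate Cdh1 had 37.4 CPM, and its mean was at most 0.0452 CPM in the other 7. Macrophage markers summed to at most 5.22 CPM and hepatocyte markers to at most 18.6 CPM in every gate. Neural and Schwann cell markers summed to 172 to 248 CPM in Stmn4+ cells, of which the neuronal tubulin gene Tubb3 made up 167 to 240 CPM, and the part of such cells in the Stmn4+ values was not tested.

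The libraries were of unlike makeup, and Ho1 stood apart from the other 3. Ho1 was the library with Xist, at 254 CPM over all its cells against at most 0.0515 CPM elsewhere, and its counts of Ddx3y, Eif2s3y, Kdm5d and Uty were all 0, whereas the other 3 libraries had all of them, so that a difference of Ho1 from Wt cannot be told apart from one of sex, while Ho2 had these genes as Wt did. Globin and other erythroid markers summed to 642 CPM in the Tnnt2+Shox2+ cells of Ho1 and to 179 CPM in its Tnnt2+Shox2- cells, and to at most 15.5 CPM in those cells of the other 3 libraries. The hearts had been treated with red cell lysis buffer. There were 725, 37, 7 and 37 Crabp1+ cells in Wt1, Wt2, Ho1 and Ho2, and 457, 181, 0 and 263 Epcam+ cells. A library with under 20 cells in a gate gave no sum, and the genotypes were therefore compared in 6 gates and not in these 2. Median depth was 10561 UMIs per cell in Wt1 and 14216 to 15832 in the other 3, and 14 to 34 cell barcodes were shared by any pair of libraries, at most 0.425% of the smaller.

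All 9 genes lie on 6 chromosomes of GRCm38 (GENCODE M21). Igfbp2 (chr1:72824503-72852474, + strand) and Igfbp5 (chr1:72857932-72874884, - strand) are neighbours whose 3′ ends face each other across 5457 bases. Igfbp3 (chr11:7206086-7213923, - strand) stands 3539 bases from Igfbp1, and Igfbp4 is on the same chromosome (chr11:99041244-99054392, + strand). Igfbp7 is at chr5:77349240-77408041 (- strand), Igf1 at chr10:87858265-87937042 (+ strand) and Igf1r at chr7:67952827-68233668 (+ strand). Igf2 (chr7:142650766-142666816, - strand) is 72.6 kb from the noncoding gene H19, and Igf2r (chr17:12682406-12769664, - strand) overlaps Airn, a noncoding RNA of the opposite strand. Airn and Igf2os, which overlaps Igf2 from the other strand, have rows of their own. Shown here are the 250 bases before the RefSeq start sites (GRCm38.p6) of Igfbp5, of its neighbour Igfbp2 and of Igfbp4, the most abundant binding protein gene of Cdh5+ cells, with TATAAA and GGGGCGG in capitals where a script found them on either strand.
Igfbp5, chr1:72874866-72875115, - strand: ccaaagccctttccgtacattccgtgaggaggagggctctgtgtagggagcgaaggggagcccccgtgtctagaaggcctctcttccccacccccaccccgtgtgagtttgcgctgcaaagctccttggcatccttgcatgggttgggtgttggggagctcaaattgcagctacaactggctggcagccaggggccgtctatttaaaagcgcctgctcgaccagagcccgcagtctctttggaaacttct
Igfbp2, chr1:72824230-72824479, + strand: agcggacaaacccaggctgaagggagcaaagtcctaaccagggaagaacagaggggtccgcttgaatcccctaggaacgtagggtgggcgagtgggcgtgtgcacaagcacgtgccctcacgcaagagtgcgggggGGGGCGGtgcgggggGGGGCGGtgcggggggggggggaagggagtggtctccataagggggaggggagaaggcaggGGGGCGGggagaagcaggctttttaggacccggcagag
Igfbp4, chr11:99040994-99041243, + strand: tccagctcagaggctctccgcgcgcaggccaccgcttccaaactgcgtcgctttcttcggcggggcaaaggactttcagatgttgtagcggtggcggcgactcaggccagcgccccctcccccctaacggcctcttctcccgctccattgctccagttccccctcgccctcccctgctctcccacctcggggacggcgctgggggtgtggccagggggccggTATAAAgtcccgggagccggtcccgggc
The Igfbp4 window holds TATAAA from base 28 to base 23 before the start, as do 12.4% of 32851 such windows in any place, and it was the only one of 13 windows of the 9 genes with these letters. GGGGCGG occurs in 21.0% of all windows, and in 5 of the 13 windows of the 9 genes. It occurs 3 times in the Igfbp2 window shown and in neither of the other windows shown, and a second RefSeq start of Igfbp2, with the window chr1:72825137-72825386, has no match. A match is a description of the sequence, and no factor was measured here.

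Transcript counts were compared between genes directly, since each molecule gives 1 UMI from its 3′ end whatever its length, although capture can differ between transcripts. In bulk sums such as these, fewer cells that express a gene and less RNA per cell cannot be told apart. Each value below is the CPM of a gene in the summed UMIs of a gate and library, and errors are the SD over 4 libraries unless n is given. A gate was compared with the mean of the other gates by edgeR's quasi-likelihood test with library as a block, over 13657 genes. Of these genes, adjusted p was under 0.05 for 70.0% in Tnnt2+Shox2- cells, 62.8% in Tnnt2+Shox2+, 63.8% in Cdh5+, 49.4% in Hapln1+, 45.9% in Stmn4+, 37.3% in Crabp1+, 44.9% in Upk3b+ and 52.1% in Epcam+ cells. The 9 genes passed in 8, 7, 7, 9, 9, 7, 5 and 8 cases, in the same order, so that differing between cell types is common among all genes and is not a result about these 9. The size and the place of their differences are what follows.

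**Figure D1:**
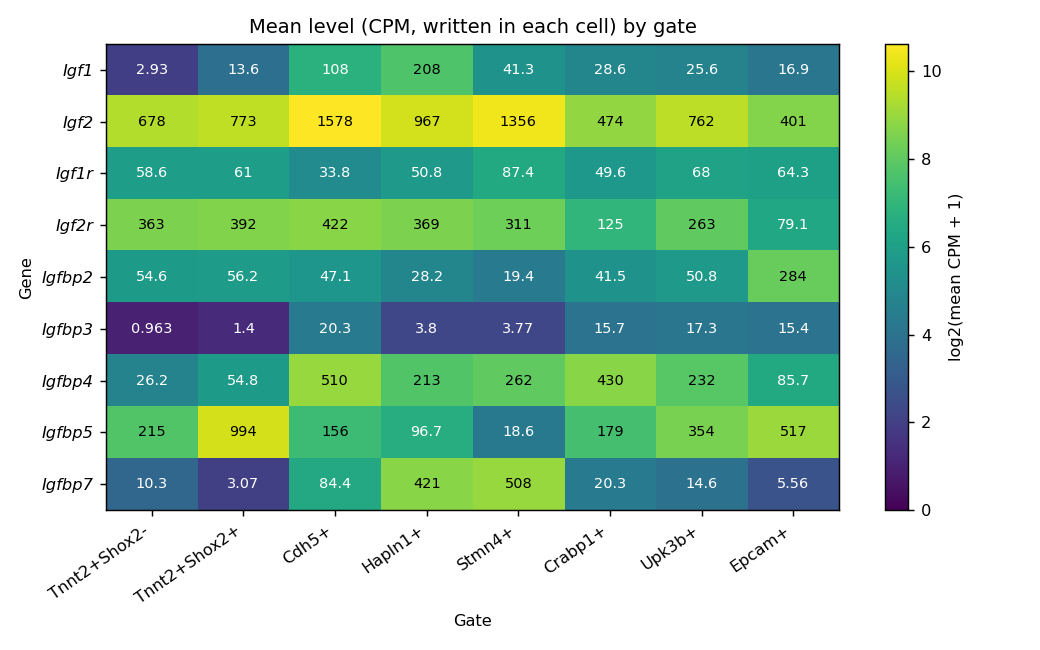
Mean level of each gene (rows) in each gate (columns) over 3 or 4 libraries, in CPM as written and as log2(CPM + 1) in colour. Igf2 has the highest mean in 6 of the 8 columns, the exceptions being Tnnt2+Shox2+ and Epcam+ cells, Igfbp5 peaks in Tnnt2+Shox2+ cells at 994 CPM, and Igfbp7 in Stmn4+ and Hapln1+ cells at 508 and 421 CPM.

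By mean level, Igf2 was the most abundant of the 9 in 6 of the 8 gates, and Igfbp5 exceeded it in Tnnt2+Shox2+ and Epcam+ cells. Single libraries went against this order in Crabp1+ cells of Wt1, with 193 CPM of Igf2 and 374 CPM of Igfbp4, and in Epcam+ cells of Ho2. The latter had 318 CPM of Igf2 and 237 CPM of Igfbp5, both below Igfbp2 at 332 CPM. Igf2 had 1578 ± 116 CPM in Cdh5+ cells, 1356 ± 90.3 in Stmn4+ cells and 967 ± 75.1 in Hapln1+ cells. By library, the Cdh5+ values were 1674, 1683, 1495 and 1462 CPM (Wt1, Wt2, Ho1, Ho2). In each library the Cdh5+ level was above the Stmn4+ level, and the Stmn4+ level was above that of Hapln1+ cells without overlap. Tnnt2+Shox2+ (773 ± 51.8), Upk3b+ (762 ± 49.2) and Tnnt2+Shox2- cells (678 ± 73.6) overlapped in their ranges, and Epcam+ cells had the lowest mean, 401 ± 75.4 (n = 3). The Cdh5+ level was higher than the mean of the other gates by 1.22 on the log2 scale (SE 0.11, edgeR adjusted p = 5.5e-11), and the Stmn4+ level by 0.88 (SE 0.11, edgeR adjusted p = 1.96e-07). After cells under 2000 UMIs were left out (4 to 9 Cdh5+ and 181 to 355 Tnnt2+Shox2- cells per library) and the others thinned to 2000 UMIs, 91.4% to 94.6% of Cdh5+ cells had an Igf2 UMI, and 65.5% to 70.9% of Tnnt2+Shox2- cells did.

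Igf1 was rarer and followed another order. Its level was highest in Hapln1+ cells, with 218, 231, 204 and 179 CPM (Wt1, Wt2, Ho1, Ho2), followed by Cdh5+ cells with 113, 114, 104 and 102 CPM. These ranges do not overlap, and the ratio of the 2 gates was 1.75 to 2.03 over the 4 libraries. Stmn4+ cells had 41.3 ± 5.16 CPM and Tnnt2+Shox2- cells 2.93 ± 1.58, the lowest of the 8. Against the mean of the other gates, Igf1 was 3.40 higher in Hapln1+ cells (log2, SE 0.14, edgeR adjusted p = 3.87e-18) and lower in Tnnt2+Shox2- cells (log2 difference -3.32, SE 0.23, edgeR adjusted p = 1.66e-13). Counted as molecules, Igf2 outnumbered Igf1 by 4.66 ± 0.34 times in Hapln1+ cells, 14.6 ± 0.30 times in Cdh5+ cells and 33.1 ± 3.28 times in Stmn4+ cells. In Tnnt2+Shox2- cells that ratio spread from 146 to 899 over the libraries, with 67, 105, 207 and 24 UMIs of Igf1 (Wt1, Wt2, Ho1, Ho2).

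Igf1r, the signalling receptor, was highest in Stmn4+ cells, with 89.7, 80.6, 90.0 and 89.5 CPM (Wt1, Wt2, Ho1, Ho2), and lowest in Cdh5+ cells, at 33.8 ± 1.40 CPM. Neither range overlapped that of its neighbour in the order, but Epcam+ cells of Wt2 had 89.9 CPM, within the range of Stmn4+ cells. Upk3b+, Epcam+ and both Tnnt2+ gates lay between 58.6 and 68.0 CPM on average with overlapping ranges, and Hapln1+ (50.8 ± 2.00) and Crabp1+ cells (49.6 ± 10.9, n = 3) also overlapped. The differences from the other gates were 0.65 in Stmn4+ cells (log2, SE 0.08, edgeR adjusted p = 5.89e-08) and -0.82 in Cdh5+ cells (SE 0.07, edgeR adjusted p = 1.26e-11).

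Igf2r, the receptor that clears IGF2, had a higher mean than Igf1r in each of the 8 gates, although in Epcam+ cells the ratio of the lowest library was 0.961. It stood at 422 ± 23.8 CPM in Cdh5+ cells, 392 ± 26.7 in Tnnt2+Shox2+, 369 ± 18.1 in Hapln1+, 363 ± 13.3 in Tnnt2+Shox2- and 311 ± 30.5 in Stmn4+ cells, and each of these overlapped the next. Levels were lower in Crabp1+ cells (125 ± 61.3, n = 3) and in Epcam+ cells (79.1 ± 17.9, n = 3), where the log2 difference from the other gates was -2.03 (SE 0.14, edgeR adjusted p = 9.95e-13). The ratio of Igf2r to Igf1r was 12.5 ± 0.19 in Cdh5+ cells, 7.27 ± 0.20 in Hapln1+ cells, 3.55 ± 0.23 in Stmn4+ cells and 1.29 ± 0.35 (n = 3) in Epcam+ cells. By mean level the endothelial gate thus had both the most Igf2r and the least Igf1r of the 8.

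The leading binding protein gene differed between gates. Igfbp5 made up 89.6 ± 1.06% of the summed CPM of the 5 genes in Tnnt2+Shox2+ cells and 69.5 ± 6.82% in Tnnt2+Shox2- cells. Igfbp4 made up 62.3 ± 4.16% in Cdh5+ cells and 65.3 ± 15.3% (n = 3) in Crabp1+ cells. In Hapln1+ and Stmn4+ cells Igfbp7 led, with 55.2 ± 1.95% and 62.5 ± 3.07%. Epicardial Upk3b+ cells had Igfbp5 (52.7 ± 3.86%) and Igfbp4 (34.9 ± 3.85%), and Epcam+ cells had Igfbp5 (54.3 ± 15.2%) and Igfbp2 (33.9 ± 15.3%, both n = 3). The order of these 2 turned in the Epcam+ cells of Ho2, with 332 CPM of Igfbp2 against 237 CPM of Igfbp5. Their summed level ran from 307 ± 38.6 CPM in Tnnt2+Shox2- cells to 1110 ± 31.1 CPM in Tnnt2+Shox2+ cells.

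**Figure D2:**
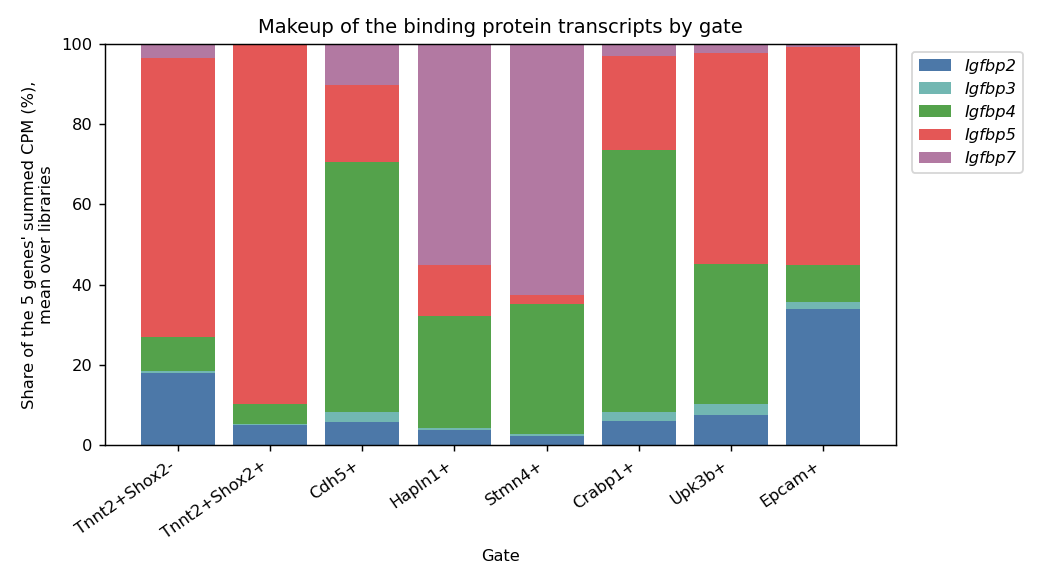
Share of the summed CPM of Igfbp2, Igfbp3, Igfbp4, Igfbp5 and Igfbp7 held by each gene (vertical axis, %, mean over 3 or 4 libraries) in each gate. Igfbp5 fills 89.6% of the bar of Tnnt2+Shox2+ cells and Igfbp7 62.5% of that of Stmn4+ cells.

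Igfbp5 separated the 2 kinds of cardiomyocyte. Tnnt2+Shox2+ cells had 966, 958, 1023 and 1029 CPM (Wt1, Wt2, Ho1, Ho2), and Tnnt2+Shox2- cells had 219, 153, 237 and 252 CPM. The Shox2+ level was higher in each library, by 4.08 to 6.28 times. It exceeded the mean of the other gates by 2.84 on the log2 scale (SE 0.15, edgeR adjusted p = 9.98e-16). Epcam+ cells had 698 CPM in Wt1, 615 in Wt2 and 237 in Ho2, Upk3b+ cells 354 ± 51.6 CPM and Cdh5+ cells 156 ± 23.4 CPM. At the low end were Hapln1+ cells with 96.7 ± 28.3 CPM and Stmn4+ cells with 18.6 ± 0.73 CPM, and the latter lay below the other gates (log2 difference -3.84, SE 0.30, edgeR adjusted p = 1.4e-11).

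Counted per cell, Tnnt2+Shox2+ cells were again highest and Stmn4+ cells lowest. After thinning to 2000 UMIs per cell, again without the cells under that depth (1 to 4 Tnnt2+Shox2+, 13 to 22 Hapln1+ and 0 to 2 Stmn4+ cells per library), 77.7% to 81.9% of Tnnt2+Shox2+ cells had an Igfbp5 UMI, 22.5% to 31.9% of Tnnt2+Shox2- cells and 12.7% to 17.1% of Hapln1+ cells. The share in Stmn4+ cells was 1.30% to 3.50%, the lowest of the 8 gates, although their median depth, 14850 to 18785 UMIs per cell over the libraries, was above the 12194 to 14842 of Hapln1+ cells. A share at that level cannot be told apart from free RNA. Without thinning, the shares were 97.8% to 99.3% in Tnnt2+Shox2+ cells and 11.7% to 14.6% in Stmn4+ cells. The 5% of Hapln1+ cells with the most Igfbp5 UMIs had 41.1% to 48.0% of the gate's Igfbp5 UMIs, against 32.9% to 38.2% in Cdh5+, 66.1% to 73.3% in Stmn4+ and 10.8% to 13.0% in Tnnt2+Shox2+ cells. Such a share rises as the UMIs of a gene per cell fall, so that it is no measure of how uneven the cells are.

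**Figure D3:**
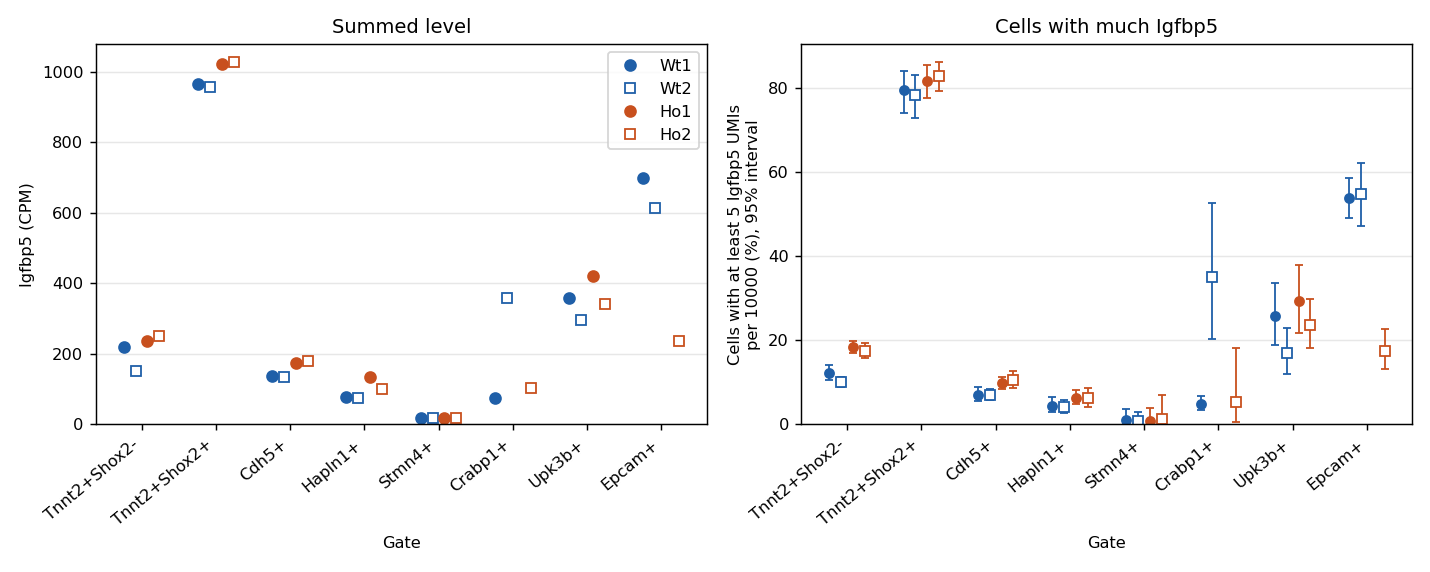
Left, Igfbp5 in CPM (vertical axis) by gate for each library. Right, share of cells with at least 5 Igfbp5 UMIs per 10000 (vertical axis, %), with exact 95% intervals that cover counting error only. Tnnt2+Shox2+ cells stand highest in both, and Stmn4+ cells lowest, at 17.9 to 19.4 CPM.

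Igfbp7 was highest where Igfbp5 was lowest. Stmn4+ cells had 473, 490, 506 and 563 CPM (Wt1, Wt2, Ho1, Ho2), and Hapln1+ cells had 423, 433, 384 and 445 CPM, below the Stmn4+ level in each library. Next came Cdh5+ cells with 84.4 ± 12.9 CPM, and the Hapln1+ level was 4.53 to 6.08 times higher than theirs. Against the other gates Igfbp7 was 4.81 higher in Stmn4+ cells (log2, SE 0.12, edgeR adjusted p = 3.2e-22) and 4.48 higher in Hapln1+ cells (SE 0.12, edgeR adjusted p = 3.44e-22). Tnnt2+Shox2+ cells had 3.07 ± 0.63 CPM, and at 2000 UMIs 0 to 1.27% of them had an Igfbp7 UMI, against 51.4% to 57.1% of Stmn4+ cells.

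Igfbp4 was highest in endothelial and in Crabp1+ cells. Its level was 510 ± 49.5 CPM in Cdh5+ cells and 430 ± 63.7 (n = 3) in Crabp1+ cells, with overlapping ranges, and 213 to 262 CPM on average in Stmn4+, Upk3b+ and Hapln1+ cells. Tnnt2+Shox2- cells had 33.8, 28.2, 18.2 and 24.4 CPM (Wt1, Wt2, Ho1, Ho2), and the Cdh5+ level was 20.3 ± 4.05 times higher. The log2 differences from the other gates were 2.03 in Cdh5+ cells (SE 0.08, edgeR adjusted p = 1.7e-19) and -2.68 in Tnnt2+Shox2- cells (SE 0.11, edgeR adjusted p = 8.41e-19).

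Igfbp2 was highest in the epithelial gate. Epcam+ cells had 262 CPM in Wt1, 259 in Wt2 and 332 in Ho2, and the next gate, Tnnt2+Shox2+, had 56.2 ± 14.4 CPM. The Epcam+ level was 3.84 to 9.34 times that of Tnnt2+Shox2+ cells in the 3 libraries, and the log2 difference from the other gates was 2.66 (SE 0.11, edgeR adjusted p = 1.08e-17). Hapln1+ and Stmn4+ cells had the least, 28.2 ± 1.35 and 19.4 ± 1.51 CPM. The neighbour genes Igfbp2 and Igfbp5 were thus both low in Stmn4+ cells and both raised in Epcam+ cells, whereas Igfbp5 alone was raised past the test in Tnnt2+Shox2+ cells (Igfbp2 log2 difference 0.25, SE 0.12, edgeR adjusted p = 0.0784).

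The highest mean of Igfbp3 in any gate was the lowest such value among the 9 genes. It had 20.3 ± 5.24 CPM in Cdh5+ cells, 17.3 ± 4.54 in Upk3b+, 15.7 ± 14.1 (n = 3) in Crabp1+ and 15.4 ± 2.83 (n = 3) in Epcam+ cells, which overlapped, and 0.96 ± 0.19 in Tnnt2+Shox2- cells. It was higher than in the other gates in Cdh5+ cells (log2 difference 2.08, SE 0.12, edgeR adjusted p = 1.95e-15) and lower in Tnnt2+Shox2- cells (-2.68, SE 0.18, edgeR adjusted p = 1.78e-13).

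**Figure D4:**
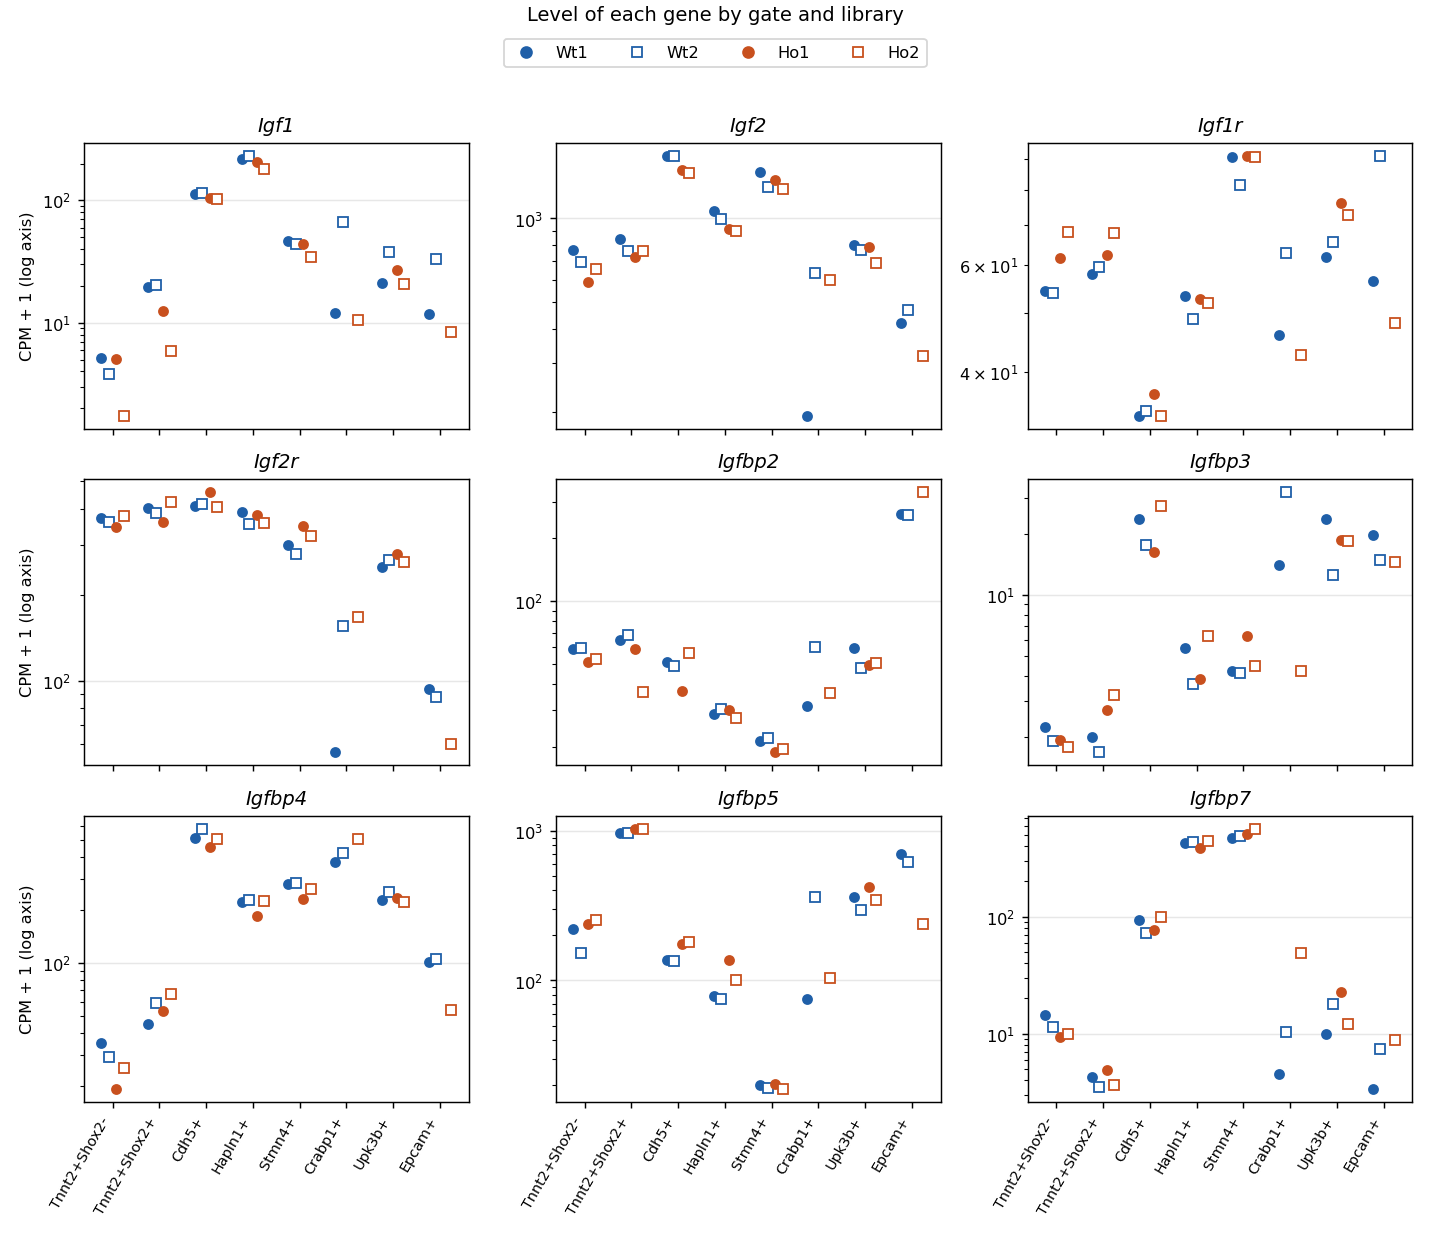
Level of each gene (CPM + 1, log axis, 1 panel per gene with its own scale) by gate (horizontal axis) and library (symbols, with Wt in blue and Ho in orange). Libraries of a gate lie close together next to the differences between gates, except in Crabp1+ and Epcam+ cells, where Wt1, Wt2 and Ho2 spread widely and Ho1 has no point, and for Igf1 in the Tnnt2+ gates.

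Over the 30 sums of gate and library, and among 10686 genes, those with the pattern most like a member were found by Pearson correlation of log2(CPM + 1). These are descriptions, since sums of 1 library share cells, depth and processing. The genes nearest to Igfbp5 were Vps13a (r = 0.91), 2310009A05Rik (0.87) and Pts (0.87), and those nearest to Igfbp7 were Tmem179 (0.94), Postn (0.93), which encodes a matrix protein, and Gkn3 (0.92). Igfbp4 was closest to Foxc1, a forkhead transcription factor (0.98), then Eva1b and Marcks (both 0.94). For Igfbp2 they were Smim22 (0.92), Map7 and Hook1 (both 0.90). Igf1 was nearest to Tmem86a (0.92), Lipa (0.91) and Col5a2 (0.90), a fibrillar collagen gene, and Igf2 to Serf2, Anxa3 (both 0.94) and Clic1 (0.89). The receptors were nearest to Ptpn21, Sdc2 (both 0.87) and Hs6st2 (0.86) for Igf1r and to Rcsd1, Cavin3 and Atf3 (all 0.93) for Igf2r. Among the 9 genes themselves, the closest pair was Igf2 with Igf2r (r = 0.80) and the most opposed was Igfbp5 with Igfbp7 (r = -0.84).

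The second comparison was of Ho with Wt within each gate, which asks whether the Cyp51 mutation goes with a change of the IGF genes in a given cell type. Leaving aside Igfbp5 in mesenchymal cells, none of the 9 genes passed edgeR's quasi-likelihood test at an adjusted p of 0.05 in any of the 6 gates. Of all genes tested, the share called was 0.0421% of 14235 in Tnnt2+Shox2- cells, 0.00875% of 11425 in Tnnt2+Shox2+, 0.0414% of 12081 in Hapln1+ and 0.0569% of 10536 in Upk3b+ cells. It was 0 of 13402 genes in Cdh5+ cells and 0 of 10051 in Stmn4+ cells by edgeR, where 686 and 571 genes had an unadjusted p under 0.05 and DESeq2 called 26 and 2. Unadjusted, 5 of the 9 genes had a p under 0.05 in Tnnt2+Shox2- cells, 2 of 8 in Tnnt2+Shox2+, 1 of 9 in Cdh5+, 0 of 9 in Upk3b+ and, without Igfbp5, 1 in Hapln1+ (Igf1) and 1 in Stmn4+ cells (Igf2r). Among all genes tested, such a p was found for 8.07% in Tnnt2+Shox2-, 5.97% in Tnnt2+Shox2+, 5.12% in Cdh5+, 4.89% in Upk3b+, 5.77% in Hapln1+ and 5.68% in Stmn4+ cells. The median log2 fold change of the members lay between -0.24 and 0.11 over the gates, beside medians of all genes from -0.00325 to 0.00308. These medians of the members include Igfbp5 in every gate, also in the mesenchymal cells that chose the set, and are a description only. With 2 libraries against 2, an exact permutation test of a single gene cannot give a two-sided p below 0.333.

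**Figure D5:**
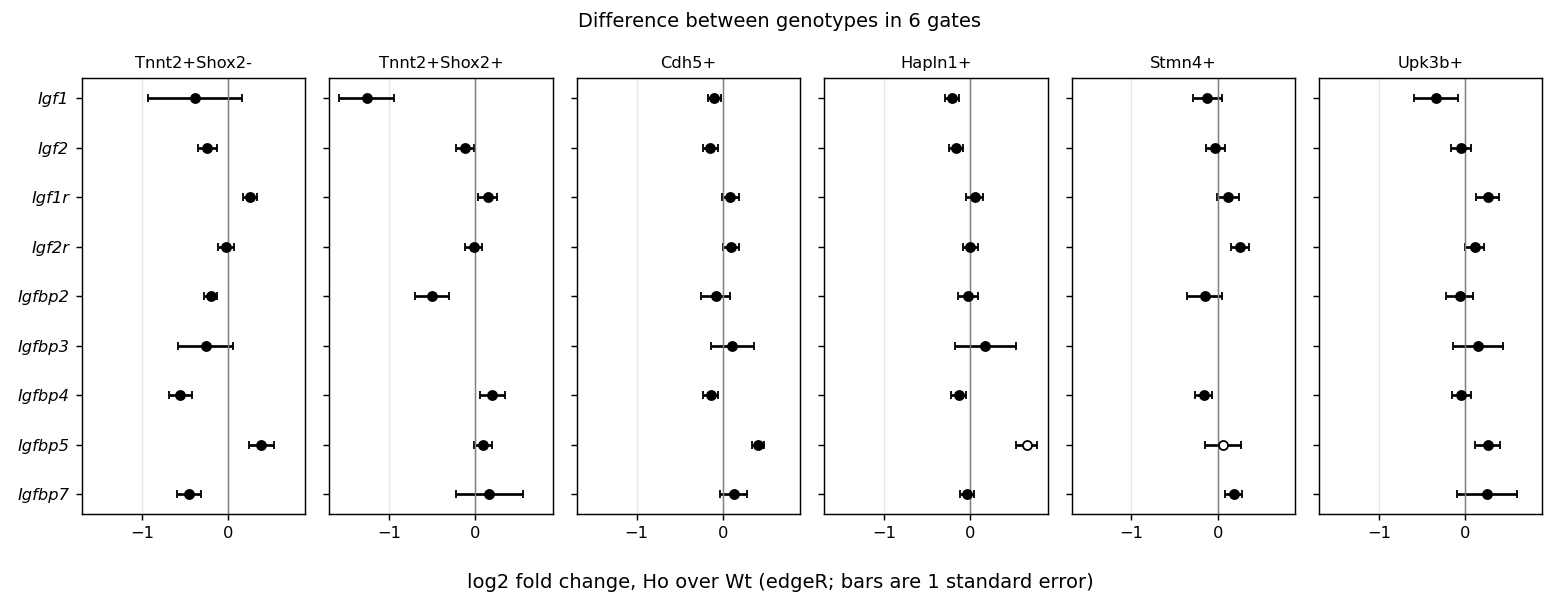
Log2 fold change of Ho over Wt (horizontal axis) for each gene in 6 gates, from edgeR, with bars of 1 SE. Open points are Igfbp5 in Hapln1+ and Stmn4+ cells, the readout that chose the set, and Igfbp3 has no point in the 2 gates where its counts were too low to test.

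Igfbp5 in mesenchymal cells is the readout that chose these genes. In Hapln1+ cells it had 77.7, 73.9, 136 and 99.5 CPM (Wt1, Wt2, Ho1, Ho2), so that both Ho libraries were above both Wt libraries and Ho1 was the highest. The log2 fold change was 0.66, 0.40 without Ho1 and 0.86 without Ho2. Summed erythroid markers in that gate were 21.8, 53.6, 73.0 and 57.2 CPM, and their part in the result was not tested. In Stmn4+ cells the levels were 19.1, 18.1, 19.4 and 17.9 CPM, which overlapped (log2 fold change 0.06, and from -0.066 to 0.42 over 16 settings). The Crabp1+ gate gave 73.9, 360 and 102 CPM in Wt1, Wt2 and Ho2, with 37 cells each in the last 2, and with no sum for Ho1 no fold change was fitted at this limit. At a lower limit of 2 Crabp1 UMIs per 10000, chosen after seeing the data, the 4 libraries had 81.3, 143, 140 and 146 CPM (Wt1, Wt2, Ho1, Ho2), which overlapped between genotypes, with Wt1 the lowest (log2 fold change 0.36). The Ho1 value rests on 86 UMIs, and its cells at this limit were unlike the others. In the same order Igfbp7 was at 14.8, 63.5, 383 and 47.1 CPM and Igf2r at 82.1, 161, 449 and 172 CPM, whereas Igfbp4 was alike at 379, 402, 400 and 371 CPM. The part of this in the Igfbp5 values was not tested. Both Ho libraries were thus above both Wt libraries in Hapln1+ cells and not in Stmn4+ or Crabp1+ cells, and no test of a difference between these gates is given, since they chose the set.

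Within the Hapln1+ gate, cells with at least 5 Igfbp5 UMIs per 10000, and at least 2 in all, were 4.47%, 4.10%, 6.34% and 6.16% of cells in the same order of libraries. The remaining cells had 48.0, 49.1, 78.9 and 59.1 CPM of Igfbp5, so that both the share of cells with much Igfbp5 and the level in the others were above Wt in both Ho libraries. The exact 95% intervals of these shares, which cover counting error only, overlapped between genotypes. They were 2.94% to 6.48% in Wt1, 2.76% to 5.83% in Wt2, 4.83% to 8.16% in Ho1 and 4.19% to 8.68% in Ho2. Pooled over libraries, the cells with much Igfbp5 had less Twist1 (292 against 691 CPM), Postn (47.3 against 107) and Igf1 (125 against 214) than the remaining Hapln1+ cells, and more Tcf21 (144 against 90.9), Tbx18 (8.91 against 0.953) and Igf2 (1474 against 934). Their endothelial markers were also higher, with the summed list at 600 against 386 CPM and Cdh5 at 42.9 CPM and lower in the remaining cells, and so were the summed epicardial (161 against 93.9) and cardiomyocyte markers (636 against 478), whereas those of cushion mesenchyme were lower (2161 against 3151). Hapln1 itself was at 1008 and 1015 CPM. These are pooled sums of 141 and 2519 cells chosen on Igfbp5, and no test was made.

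Outside the mesenchymal gates, each Ho value of Igfbp5 lay above each Wt value in the Cdh5+ and the 2 Tnnt2+ gates. In Upk3b+ cells the genotypes overlapped, with 357, 295, 420 and 341 CPM (log2 fold change 0.27, SE 0.14, edgeR adjusted p = 0.982), and in Epcam+ cells the value of Ho2 given above was below both Wt values. In Cdh5+ cells it had 137 and 135 CPM in Wt and 173 and 179 CPM in Ho, which do not overlap (log2 fold change 0.41, SE 0.07, edgeR adjusted p = 0.545). Summed erythroid markers in that gate were 89.4, 71.5, 255 and 122 CPM (Wt1, Wt2, Ho1, Ho2), higher in both Ho libraries too. Hapln1 was at 454, 416, 481 and 525 CPM in the same order, also higher in both Ho libraries. The part of either was not tested. Without Ho1 the log2 fold change of Igfbp5 was again 0.41. In Tnnt2+Shox2- cells the log2 fold change was 0.39 (SE 0.15, edgeR adjusted p = 0.585), with Wt2 lower than the other 3 libraries. In Tnnt2+Shox2+ cells, where the gene was most abundant, it was 0.09 (SE 0.10, edgeR adjusted p = 0.95). The share of cells with at least 5 UMIs per 10000 in the Cdh5+ gate was 7.10% and 7.05% in Wt and at least 9.77% in each Ho library. In Tnnt2+Shox2- cells that share was 12.2%, 10.1%, 18.4% and 17.6% (Wt1, Wt2, Ho1, Ho2). The remaining Tnnt2+Shox2- cells had 127, 88.1, 112 and 119 CPM of Igfbp5, which overlapped between genotypes. Pooled over libraries, summed sinus venosus markers were 226 CPM in the Tnnt2+Shox2- cells with much Igfbp5 and 79.2 CPM in the others, and their part was not tested. Pooled likewise, Cdh5+ cells with much Igfbp5 had more summed cushion (912 against 662 CPM) and cardiomyocyte markers (777 against 500) than the other Cdh5+ cells. Their endothelial (1622 against 1862) and erythroid markers (36.9 against 156) were lower, and no test was made. Leaving out 1 library changed the size of the difference in Tnnt2+Shox2- cells. There the log2 fold change of Igfbp5 was 0.68, 0.39 and 0.40 without Wt1, Ho1 or Ho2, and 0.15 without Wt2. Such a fit leaves a genotype with a single library, assumed to vary like the other group, so that no p-value is given. In Cdh5+ cells the log2 fold change was 0.41 without Ho2, and from 0.38 to 0.46 over 16 settings. With all libraries, Igfbp5 in Cdh5+ cells passed by DESeq2 (adjusted p = 0.0381) and with no filter on low counts (edgeR adjusted p = 0.00137). It also passed with no filter in Tnnt2+Shox2- cells (edgeR adjusted p = 0.0129). Both settings called more of all genes in these gates than the main test, with counts given at the end.

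Other members had values that did not overlap between genotypes, read beside how often this happens. The CPM of the 2 genotypes did not overlap for 37.1% of genes in Tnnt2+Shox2- cells, 33.8% in Tnnt2+Shox2+, 35.7% in Cdh5+, 34.8% in Hapln1+, 35.3% in Stmn4+ and 33.5% in Upk3b+ cells. Of the members tested, this held for 6 of 9, 4 of 8, 4 of 9, 3 of 9, 4 of 8 and 1 of 9 in the same order, and without Igfbp5 for 2 of 8 in Hapln1+ and 4 of 7 in Stmn4+ cells, the gates that chose it. Over the 6 gates, Igf1, Igf2, Igfbp2 and Igfbp4 each had both Ho values below both Wt values in 3 gates and above them in none, and Igf1r had both Ho values above in 3 and below in none. Of the 9428 genes tested in all 6 gates, 21.6% had no overlap in at least 3 gates in 1 direction and in none in the other, as had 5 of the 7 members among them other than Igfbp5. The gates share no cells, but they come from the same 4 libraries, so that they are not independent.

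In the gate where each was highest among the 6, no member passed the test between genotypes. Igf2 in Cdh5+ cells was lower in both Ho libraries (log2 fold change -0.15, SE 0.09, edgeR adjusted p = 0.91), and so was Igfbp4 (-0.14, SE 0.09, edgeR adjusted p = 0.91). Igf1 in Hapln1+ cells was also lower in both (-0.21, SE 0.08, edgeR adjusted p = 0.78). For Igf2r (0.10, SE 0.09) and Igfbp3 (0.11, SE 0.25) in Cdh5+ cells and for Igf1r in Stmn4+ cells (0.12, SE 0.12) the libraries overlapped, with edgeR adjusted p of 0.92, 0.97 and 0.94. Igfbp7 in Stmn4+ cells was higher in both Ho libraries (0.19, SE 0.10, edgeR adjusted p = 0.87). Igfbp2 in Tnnt2+Shox2+ cells had 64.1 and 67.5 CPM in Wt and 57.8 and 35.5 CPM in Ho (-0.51, SE 0.20, edgeR adjusted p = 0.80). Without Ho1, where Ho2 stood alone, its log2 fold change was -0.91, but without Ho2 it was -0.16.

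A few other differences of members in cardiomyocytes were chosen for mention after their values were seen. Igf1 in Tnnt2+Shox2+ cells had 18.6, 19.4, 11.6 and 4.88 CPM in the same order (log2 fold change -1.26, SE 0.32, edgeR adjusted p = 0.58). Without Ho1 it was -1.98, and without Ho2 -0.69, each with a single Ho library left, so that no p-value is given. In Tnnt2+Shox2- cells, at 0.731 to 4.11 CPM, the log2 fold change of Igf1 was -0.38 (SE 0.55, edgeR adjusted p = 0.885). Its direction was unstable, with -2.24 without Ho1 and 0.33 without Ho2. Igfbp4 in Tnnt2+Shox2- cells was lower in both Ho libraries (-0.55, SE 0.13, edgeR adjusted p = 0.34), with log2 fold changes from -0.71 to -0.39 over 16 settings. Igfbp7 in those cells was -0.45 (SE 0.14, edgeR adjusted p = 0.45), and from -0.65 to -0.27 over the same settings. Igf1, Igfbp7 and Igfbp4 were at 2.93, 10.3 and 26.2 CPM in Tnnt2+Shox2- cells on average, and the size of these differences depends on which library is left out. With no filter on low counts, Igfbp4 and Igfbp7 in Tnnt2+Shox2- cells (edgeR adjusted p = 0.000355 and 0.0245) and Igf1 in Tnnt2+Shox2+ cells (edgeR adjusted p = 7.97e-07) passed with all 4 libraries. That setting called far more of all genes in both gates than the test with the filter, and these calls are to be read beside the counts given at the end.

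Whether the Ho against Wt difference itself differed between the 6 gates was tested in 1 model with library as a block. By edgeR, 0 of 13773 genes passed, a share of 0%, while 785 had an unadjusted p under 0.05, and DESeq2 was not run for this model. Of the members other than Igfbp5, whose test would include the gates that chose it, the lowest adjusted p was that of Igfbp4 (edgeR adjusted p = 0.727). A difference between gates in the response of these genes was thus not detected with 2 libraries per genotype.

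A list of 42 other genes of the IGF and insulin pathway was read in the same way. In the comparison of gates 38 of them were tested, and 29 passed in Tnnt2+Shox2- cells (18 higher, 11 lower), 27 in Tnnt2+Shox2+ (14 and 13), 29 in Cdh5+ (11 and 18) and 25 in Hapln1+ cells (12 and 13). In Stmn4+ cells 18 passed (9 and 9), in Crabp1+ 13 (4 and 9), in Upk3b+ 20 (7 and 13) and in Epcam+ cells 23 (14 and 9). As shares these are 76.3%, 71.1%, 76.3%, 65.8%, 47.4%, 34.2%, 52.6% and 60.5%, beside 70.0%, 62.8%, 63.8%, 49.4%, 45.9%, 37.3%, 44.9% and 52.1% of all genes, and nothing particular to the list is read from them. The 4 most abundant were H19, Grb10, Rheb and Eif4ebp1. H19, the noncoding neighbour of Igf2, had 2190 ± 50.3 CPM in Cdh5+ cells, 1328 ± 32.0 in Hapln1+ cells and 382 ± 45.0 in Tnnt2+Shox2- cells, and its log2 difference from the other gates was 1.66 in Cdh5+ cells (SE 0.11, edgeR adjusted p = 1.9e-13). Grb10, an imprinted adaptor that damps insulin and IGF receptors, was lowest in Cdh5+ cells (143 ± 8.49 CPM, log2 difference -0.79, SE 0.07, edgeR adjusted p = 2.2e-11). Rheb, the GTPase that activates mTORC1, and Eif4ebp1, a repressor of translation that mTORC1 inactivates, were both highest in cardiomyocytes. Rheb had 345 ± 17.9 CPM in Tnnt2+Shox2+ cells, and Eif4ebp1 379 ± 29.4 CPM in Tnnt2+Shox2- cells.

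Between genotypes none of the pathway genes passed in any gate, with 33 to 37 of them tested. Their median log2 fold changes were between -0.07 and 0.04, beside the medians of all genes given above. The 4 most abundant genes had log2 fold changes from -0.18 (Grb10 in Upk3b+ cells, SE 0.11, edgeR adjusted p = 0.98) to 0.34 (H19 in Tnnt2+Shox2+ cells, SE 0.10, edgeR adjusted p = 0.74). Nearest to the threshold was Phlda2, an imprinted gene that restrains placental growth, in Upk3b+ cells, with 26.6 and 38.3 CPM in Wt and 9.79 and 13.0 CPM in Ho (log2 fold change -1.47, SE 0.23, edgeR adjusted p = 0.0565). In Tnnt2+Shox2- cells its log2 fold change was -0.73 (edgeR adjusted p = 0.61), and in the other 4 gates it was between 0.06 and 0.35, with Phlda2 too chosen for mention after its values were seen. Irs2, an adaptor of the insulin and IGF1 receptors, had both Ho values above both Wt values in 5 of the 6 gates and was chosen for mention after this was seen. No overlap in at least 5 gates in 1 direction was found for 4.44% of the 9428 genes tested in all 6 gates, and for 3 of the 31 pathway genes among them. In Tnnt2+Shox2- cells it had 14.7, 15.2, 17.7 and 29.0 CPM in Wt1, Wt2, Ho1 and Ho2 (log2 fold change 0.61, SE 0.18, edgeR adjusted p = 0.41), and in Cdh5+ cells 4.94, 5.63, 7.93 and 7.88 CPM (0.61, SE 0.14, edgeR adjusted p = 0.76). Igfbp1, Igfals, Insrr, Irs4 and Pappa2 had too few counts to be tested between genotypes in any gate, and Insrr had 0 UMIs in all of them.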

How the data were processed

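Hearts of E10.5 embryos had been dissociated and sequenced as 10x Chromium 3′ v3.1 libraries, and the authors deposited, per the labels, counts of UMIs per gene and cell made with Cell Ranger 6.1.1 (Seurat 4.1.0 is also named in the submitters' processing notes). The values are raw counts with no normalization. Barcodes were kept as in the study's methods, from 500 to 50000 UMIs, from 500 to 6000 genes and no more than 20% mitochondrial counts. Doublets were called by Scrublet (scanpy 1.11.5) in place of DoubletFinder, at a rate of 0.8% per 1000 barcodes, and 334 to 746 were removed per library. Gates needed 10 UMIs per 10000 for Tnnt2 and Crabp1, 5 for Hapln1, 2 for Stmn4, and 1 for Cdh5, Upk3b and Epcam. Each of these genes but Tnnt2 also needed at least 2 UMIs in the cell. Hapln1, Stmn4 and Crabp1 were read only in cells that met none of the Tnnt2, Cdh5, Upk3b and Epcam limits. A cell that met more than 1 of them went to the gene whose level was the largest multiple of its limit. Tnnt2+ cells were Shox2+ with at least 2 UMIs of Shox2. Cells meeting more than 1 of the Tnnt2, Cdh5, Upk3b and Epcam gates (25 to 57 per library) were left out, and 780 to 4118 met none of the gates. The UMIs used per library were 97179971 to 113478594.

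Cells are not replicates, so counts were summed per library and gate and tested over libraries with edgeR 4.0.16 (R 4.3.3, TMM, filterByExpr, quasi-likelihood, Benjamini-Hochberg), with DESeq2 1.42.0 as an alternative. CPM is the UMIs of a gene per 1000000 UMIs of the summed cells. Intervals are exact (Clopper-Pearson, 95%) and cover counting error only. Genotype fold changes are given for each member in its highest gate among those tested, and for the pathway list for genes called and the 4 most abundant. Exceptions are named where they occur. The members and lists were chosen with earlier results of these data known. Scripts were tested on simulated data. Gene positions are from GENCODE M21, which held 32235 of the 32285 gene IDs. The genes with the pattern most like Igfbp3 are not reported here.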

Additional observations from a re-analysis of the deposited data

How the results depend on the processing

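Counts of genes called between genotypes moved with most choices. They are given for Tnnt2+Shox2-, Tnnt2+Shox2+, Cdh5+, Hapln1+, Stmn4+ and Upk3b+ cells, where the counts in the report were 6, 1, 0, 5, 0 and 6. Without a filter on low counts they were 267, 101, 248, 126, 65 and 112, and DESeq2 gave 26, 2, 26, 12 and 2 in the first 5. Leaving out 1 library gave 53 to 527, 2 to 227, 0 to 178, 17 to 85, 0 to 16 and 8 to 63, with the lone library of a genotype assumed to vary like the other group. With the replicate number as a block, the counts were 0 in Tnnt2+Shox2-, 10 in Tnnt2+Shox2+, 8 in Hapln1+, 68 in Stmn4+ and 66 in Upk3b+ cells. The deviations of same-numbered libraries correlated at -0.089 to 0.037. With so few libraries this cannot tell whether same-numbered libraries share more than a number, and the labels do not say. With doublets kept, 0 genes were called in both Tnnt2+ gates and in Upk3b+ cells and 2 in Hapln1+ cells. With gate limits doubled the counts were 17 in Tnnt2+Shox2-, 0 in Tnnt2+Shox2+, 18 in Stmn4+ and 11 in Upk3b+ cells. With overlapping gates they were 0 in Tnnt2+Shox2-, 17 in Stmn4+ and 28 in Upk3b+ cells. In Tnnt2+Shox2+ cells RLE normalization and a limit of 10% mitochondrial counts gave 0. Of the alternatives chosen after seeing the data, the automatic doublet threshold gave 0 in Tnnt2+Shox2+ and 2 in Upk3b+ cells, and a Crabp1 limit of 2 per 10000 gave 10 in Hapln1+ cells. The test of the difference between gates called 366 genes without a filter and 0 to 119 when 1 library was left out. The gate contrast of Crabp1+ cells called 951 to 5276 genes with 1 library left out, the lowest without Wt1, which holds most Crabp1+ cells. Among the members' fold changes printed in the report, signs turned for Igfbp3 in Cdh5+ cells (-0.12 without Wt2, -0.28 without Ho2, 0.47 without Ho1, -0.0043 with limits doubled), Igf2r in Cdh5+ cells (-0.017 without Ho1, 0.21 without Ho2), Igf1r in Stmn4+ cells (-0.022 with limits doubled), Igf1 in Tnnt2+Shox2- cells (0.33 without Ho2) and Igfbp5 in Stmn4+ cells (-0.013 without Wt2, -0.033 without Ho1, 0.13 without Ho2, -0.066 with doublets kept, -0.0048 at the automatic threshold). The highest log2 fold change of Igfbp5 in Stmn4+ cells over the settings was 0.42. Signs also turned for members in gates whose fold changes are not printed, such as Igfbp2 in Cdh5+ cells (-0.39 to 0.19). The cause was not tested. The Stmn4+ gate held 77 to 241 and the Upk3b+ gate 133 to 221 cells per library, which limits the depth of their sums.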

Other observations

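In the sums over all cells of a library, gated or not, the Wt mean of Igfbp4 was 274 ± 19.9 CPM and its Ho mean 187 ± 15.9 CPM, and for Igfbp5 they were 187 ± 4.15 and 271 ± 21.5 CPM (errors are the SD of 2 libraries). Neither pair of ranges overlapped, nor did that of Igf1r (51.5 ± 0.323 and 54.9 ± 0.716 CPM), whereas the ranges of the other 6 members overlapped. In these sums the genotypes did not overlap for 37.6% of 16978 genes. The share of cells in a gate ran from 53.5% in Wt1 to 88.0% in Ho1, so that these sums differ in cell makeup as well as in genotype, and no test was made.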
